A study of Mus musculus with 8 samples.

Results

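The epicardium, the mesothelial sheet that covers the heart, was followed through 9 genes: *Wt1*, *Tcf21*, *Tbx18*, *Aldh1a2*, *Upk3b*, *Upk1b*, *Msln*, *Lrrn4* and *Muc16*. All probe sets annotated to 1 of these genes alone were taken, which gave 15 of the 45101 probe sets on the array and 9 of the 18194 genes with a probe set of their own. RNA came from whole hearts of 3 2lox/2lox and 5 wild-type mouse embryos at E18.5, with 1 Affymetrix Mouse430 array per heart. The 2lox/2lox embryos are homozygous for the unrecombined floxed allele of *Kdm1a* (*Aof2*), which encodes the histone demethylase Lsd1. The labels describe these hearts both as Lsd1-hypomorphic and as an Lsd1 knock-out, and per the study's methods the allele is not excised and its product carries point mutations in the tower domain. The wild-type embryos were littermates with intact *Kdm1a*.

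The epicardium arises from the proepicardium, spreads over the myocardium, and sends cells inward by an epithelial-to-mesenchymal transition that contribute fibroblasts and mural cells of the coronary vessels. Wt1, Tcf21 and Tbx18 are transcription factors of the epicardium and its progeny, and Aldh1a2 makes retinoic acid, a signal that the epicardium sends to the myocardium. Uroplakins Upk3b and Upk1b, mesothelin (Msln), the leucine-rich repeat protein Lrrn4 and the mucin Muc16 are surface proteins of mesothelium.

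Each value is a log2 expression level, so a difference of 1 is a doubling, and levels of different probe sets are not compared. Array medians lay between 5.03 and 5.10. The lower quartile of all values was 4.21, and probe sets near it cannot be told from background. *Kdm1a* was lower in the 2lox/2lox hearts on both of its probe sets, by limma with Benjamini-Hochberg adjustment (log2 fold change -0.81 ± 0.06 SE, adjusted p = 0.000515, and -0.83 ± 0.07, adjusted p = 0.00176), with no overlap between groups. The cardiomyocyte genes *Myh6*, *Tnnt2* and *Actc1* averaged 13.26, 13.94 and 14.41 in the 2lox/2lox hearts, against 13.20, 13.96 and 14.43 in the wild-type hearts. *Mybpc3* and *Nkx2-5*, the cardiomyocyte genes with the smallest p, had log2 fold changes of 0.21 and 0.27 (adjusted p = 0.336 each in limma). *Xist* was high in 2lox/2lox heart 3 (10.88) and wild-type heart 2 (10.59) and between 4.61 and 4.94 in the other hearts. As a sign of RNA quality, the *Gapdh* and *Actb* controls read higher at the 3′ end than at the 5′ end by 0.52, 0.50 and 0.33 in 2lox/2lox hearts 1 to 3, against 0.32 to 0.38 in the wild-type hearts. Where values fall in whole hearts, fewer epicardial cells and less RNA per cell cannot be told apart.

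The promoters of the surface-protein genes *Lrrn4* and *Upk3b* and of *Aldh1a2* and *Tbx18* are shown because these 4 genes covaried closely over the hearts. The 250 bases before each annotated start are from RefSeq, build GRCm38.p6, for 6 of the 9 genes (*Wt1*, *Upk1b* and *Msln* have no entry in the table used). They lie at chr2:132880863-132881112 on the minus strand, chr5:136038246-136038495 on the plus strand, chr9:71215539-71215788 on the plus strand and chr9:87731261-87731510 on the minus strand, and each is written 5′ to 3′ along its gene. Capitals mark matches, on either strand, to any of 6 motifs of factors known in the epicardium.
Lrrn4: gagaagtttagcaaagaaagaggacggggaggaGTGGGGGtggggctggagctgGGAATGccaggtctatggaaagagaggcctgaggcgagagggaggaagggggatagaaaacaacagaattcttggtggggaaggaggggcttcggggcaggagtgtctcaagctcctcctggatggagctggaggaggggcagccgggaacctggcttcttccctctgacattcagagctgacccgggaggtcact
Upk3b: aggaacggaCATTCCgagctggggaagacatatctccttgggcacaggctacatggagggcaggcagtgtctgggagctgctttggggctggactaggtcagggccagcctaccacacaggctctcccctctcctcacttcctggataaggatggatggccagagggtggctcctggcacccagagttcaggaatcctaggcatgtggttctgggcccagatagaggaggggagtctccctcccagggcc
Aldh1a2: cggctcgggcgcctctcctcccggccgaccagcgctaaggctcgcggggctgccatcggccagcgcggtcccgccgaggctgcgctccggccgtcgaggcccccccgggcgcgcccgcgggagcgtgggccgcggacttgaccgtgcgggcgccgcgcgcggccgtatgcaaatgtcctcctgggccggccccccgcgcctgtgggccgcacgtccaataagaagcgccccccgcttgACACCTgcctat
Tbx18: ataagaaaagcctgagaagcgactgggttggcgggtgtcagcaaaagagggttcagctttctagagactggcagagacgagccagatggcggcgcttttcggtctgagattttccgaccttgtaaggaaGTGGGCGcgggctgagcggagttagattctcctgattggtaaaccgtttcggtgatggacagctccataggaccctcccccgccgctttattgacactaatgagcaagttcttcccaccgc
The TEAD motif GGAATG lay in the windows of *Lrrn4* and *Upk3b* (on the opposite strand in *Upk3b*), in 2 of 6 member windows and in 12.6% of all 32851 promoter windows. The T-box motif AGGTGT lay in those of *Muc16* and *Aldh1a2* (11.8% of all windows). The WT1 motif GTGGGNG lay in those of *Lrrn4* and *Tbx18* (28.1%). The MEIS motif TGACAG matched in *Muc16* (15.9%) and the GATA motif AGATAA in *Tcf21* (9.99%). The E-box CAGCTG matched in 0 of the 6 (13.0%). No motif was shared by more than 2 of the 6 windows, and a match is only a description of the letters.

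None of the 15 probe sets differed between 2lox/2lox and wild-type hearts after adjustment over all 45101, where 0.0798% of probe sets passed (0.0621% higher and 0.0177% lower). The smallest adjusted p of the 15 was 0.228 by limma. The point estimates leaned one way: 14 of 15 log2 fold changes were negative, against 51.5% of all probe sets, with a median of -0.26 against 0.00. With the 3′ to 5′ difference, which was high in 2lox/2lox hearts 1 and 2, as a covariate the median of the 15 was -0.04 (-0.36 to 0.14) and 12 were negative. Without 2lox/2lox heart 2 it was -0.06 (-0.32 to 0.23) and 11 were negative. At an unadjusted p below 0.05, 3 of the 15 were lower and 0 higher, against 4.94% of all probe sets lower and 10.9% in either direction. These probe sets share hearts and covary, so they do not count as separate results.

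*Tcf21*, a basic helix-loop-helix factor needed for the cardiac fibroblast lineage, came closest. Its brighter probe set read 9.28, 8.80 and 9.33 in 2lox/2lox hearts 1 to 3, against 9.59, 9.63, 9.50, 9.70 and 9.55 in wild-type hearts 1 to 5. All 2lox/2lox hearts lay below all wild-type hearts, an arrangement found in 2.71% of all probe sets, with 3.41% the other way round and 6.11% in either direction. The log2 fold change was -0.45 ± 0.11 (SE), with a 95% interval of -0.70 to -0.20 and an adjusted p of 0.228 in limma. It was -0.29 without 2lox/2lox heart 2, the lowest heart, and -0.55 with an adjusted p of 0.0548 in limma without 2lox/2lox heart 3. Without heart 3 adjusted p fell across the array, where 797 probe sets passed against 36 with all hearts. Only 2lox/2lox hearts 1 and 2 remain in that fit, with 3′ to 5′ differences of 0.52 and 0.50. No wild-type heart exceeded 0.38. The fit therefore cannot separate genotype from RNA quality, whose part in the lower p was not tested. For *Tcf21* the wild-type hearts lay close together (SD 0.08, at percentile 33.5 of all probe sets), while the SD over all 8 hearts was at percentile 95.9. A second *Tcf21* probe set averaged 4.27 in 2lox/2lox and 4.35 in wild-type hearts, near the lower quartile of the arrays.

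*Wt1*, a zinc-finger factor of epicardial cells, read 6.12, 5.79 and 6.19 in the 2lox/2lox hearts, against 6.26, 5.66, 6.23, 6.45 and 6.33 in the wild-type hearts. The groups overlapped, and the lowest heart of all was a wild-type one (log2 fold change -0.16 ± 0.16 SE, and -0.04 without 2lox/2lox heart 2). *Tbx18*, a T-box factor of the proepicardium and epicardium, read 9.16, 8.74 and 8.97 in the 2lox/2lox hearts, against 9.09, 8.86, 9.0, 9.36 and 8.95 in the wild-type hearts on its brighter probe set. Here too the groups overlapped, with log2 fold changes of -0.09 and -0.16 on its 2 probe sets. For the brighter one the sign turned without 2lox/2lox heart 2 (0.02).

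*Aldh1a2* varied most of the members. It read 7.56, 5.78 and 7.77 in the 2lox/2lox hearts, against 7.59, 6.82, 7.56, 8.18 and 7.91 in the wild-type hearts. 2lox/2lox heart 2 lay far below the rest while the other 2lox/2lox hearts sat inside the wild-type range. The whole range over 8 hearts was 5.27-fold, and the SD of 0.76 was at percentile 99.8 of all probe sets. The log2 fold change of -0.57 ± 0.43 (SE, adjusted p = 0.698 in limma) became 0.05 without 2lox/2lox heart 2. Adding the 3′ to 5′ covariate gave -0.01 ± 0.55 (SE).

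**Figure D1:**
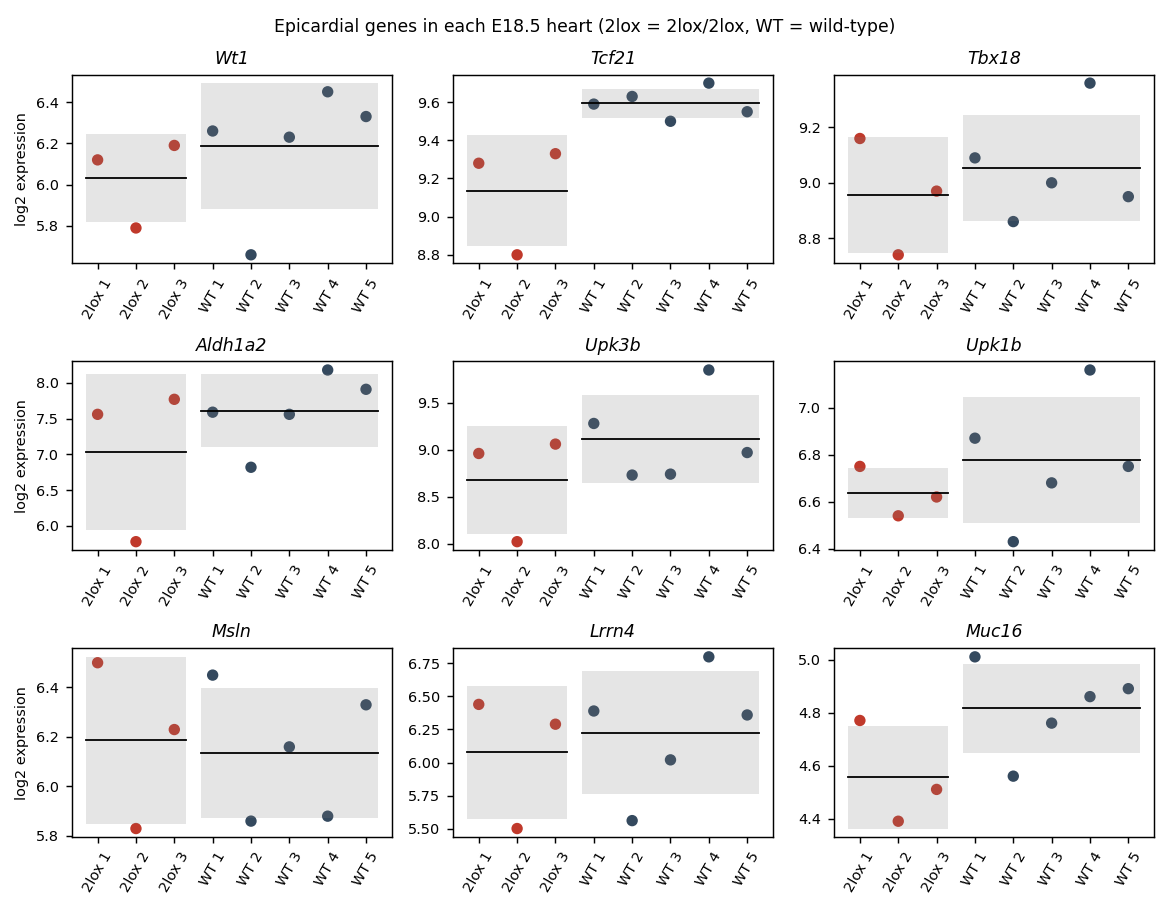
log2 expression (y axis) of each of the 9 genes, by its brightest probe set, in each of the 3 2lox/2lox hearts (red, left) and 5 wild-type hearts (dark, right), with the group mean as a line and 1 SD as a band. The groups separate only for *Tcf21*, and 2lox/2lox heart 2 is the lowest heart for 7 of the 9 genes.

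Of the mesothelial surface genes, *Upk3b* read 8.96, 8.02 and 9.06 in the 2lox/2lox hearts, against 9.28, 8.73, 8.74, 9.85 and 8.97 in the wild-type hearts on its brighter probe set. Both *Upk3b* probe sets gave like estimates (-0.43 ± 0.29 and -0.47 ± 0.28 SE) and followed each other over the hearts with r = 0.99. Without 2lox/2lox heart 2 they were -0.10 and -0.15, and the 3′ to 5′ covariate gave -0.04 ± 0.37 and -0.09 ± 0.36 (SE). *Lrrn4* read 6.44, 5.50 and 6.29 in the 2lox/2lox hearts, against 6.39, 5.56, 6.02, 6.80 and 6.36 in the wild-type hearts. Its groups overlapped almost wholly (-0.15 ± 0.27 SE), and the sign turned to 0.14 without 2lox/2lox heart 2.

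*Upk1b* has 4 probe sets, and they differed in size. The brightest averaged 6.64 ± 0.10 in the 2lox/2lox hearts and 6.78 ± 0.27 in the wild-type hearts (SD, n = 3 and 5), a log2 fold change of -0.14. Another averaged 5.80 ± 0.44 in the 2lox/2lox hearts and 6.37 ± 0.40 in the wild-type hearts, a log2 fold change of -0.57 with an adjusted p of 0.422 in limma. The remaining estimates were -0.35 and -0.41, all 4 were negative, and the probe sets correlated with each other at r = 0.82 to 0.95. Without 2lox/2lox heart 2 the estimate of -0.57 became -0.32, that of -0.41 became -0.04 and that of -0.35 became -0.20.

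*Muc16* read 4.77, 4.39 and 4.51 in the 2lox/2lox hearts, against 5.01, 4.56, 4.76, 4.86 and 4.89 in the wild-type hearts. The 2lox/2lox hearts were mostly lower but overlapped the wild-type ones (-0.26 ± 0.11 SE, adjusted p = 0.431 in limma). All *Muc16* values lay below the median of all values, 5.07, and toward the lower quartile, 4.21, so background may be part of them. It did not reach 5 in at least 3 hearts. *Msln* read 6.50, 5.83 and 6.23 in the 2lox/2lox hearts, against 6.45, 5.86, 6.16, 5.88 and 6.33 in the wild-type hearts. It is the only member with a positive estimate (0.05 ± 0.17 SE), and the groups covered nearly the same range.

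**Figure D2:**
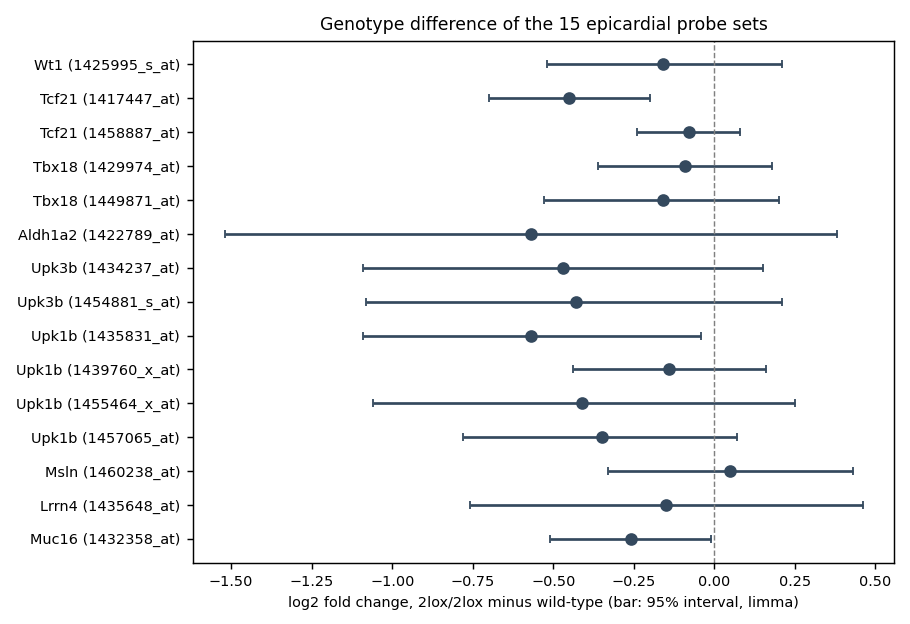
log2 fold change, 2lox/2lox minus wild-type (x axis), of the 15 epicardial probe sets with its 95% interval from limma. Of the 15 estimates 14 lie left of 0, and 3 intervals (for *Tcf21*, *Upk1b* and *Muc16*) do not reach 0 before adjustment.

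The members varied together from heart to heart. Over the 8 hearts all 36 pairs of members correlated positively, with a median Pearson r of 0.72 (0.15 to 0.91) and a median Spearman rho of 0.64. Over all pairs of the 18194 genes the median r was 0.01, and 3.10% of pairs reached the members' median. Most members vary more than most genes, and among pairs of the 1807 varying genes above the median level (SD of at least 0.2) the share was 7.72%. By an exact permutation test over the 40320 orders of the hearts, two-sided, 21 pairs had an unadjusted p below 0.05 and 10 passed after Benjamini-Hochberg adjustment over the 36. With Spearman's rho 0 pairs passed. Without 2lox/2lox heart 2 the median r was 0.52 and 0 pairs passed. For each pair, the 2 hearts farthest from the median of its first gene, in the order listed at the start, were left out. This gave a median r of 0.54 with 31 pairs positive. The 10 called pairs had r of 0.72 to 0.96 without 2lox/2lox heart 2. Without the 2 hearts farthest for the first gene of each pair their r was 0.54 to 0.86. Their rho was 0.69 to 0.90 (adjusted exact permutation p from 0.0521 to 0.156). These pairs were called on r over the same hearts, so the values are no separate test. Among the other pairs r without 2lox/2lox heart 2 fell as far as -0.64, for *Tcf21* and *Msln*.

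The hearts at the ends recurred from gene to gene. By the brightest probe set of each gene, 2lox/2lox heart 2 was lowest for 7 of the 9 genes, and wild-type heart 2 was lowest for *Wt1* and *Upk1b*. The remaining *Upk1b* probe sets were instead lowest in 2lox/2lox heart 2, at 5.30, 5.16 and 6.08. Wild-type heart 4 was highest for 7 of 9, the exceptions being *Msln* and *Muc16*. The order was not shared throughout, since wild-type heart 2 was the second highest for *Tcf21* (9.63) and wild-type heart 4 was low for *Msln* (5.88). Both genotypes thus held a low heart, and with the group means removed the median r was 0.73.

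*Lrrn4* followed the other members most closely (median r 0.88). Its highest pairing was with *Wt1* (r = 0.91, rho = 0.69, exact permutation p = 0.00446, adjusted p = 0.023), and r was 0.88 without 2lox/2lox heart 2. *Tbx18* and *Upk3b* also paired at r = 0.91 (rho = 0.74, exact permutation p = 0.00511, adjusted p = 0.023). *Aldh1a2* and *Lrrn4* paired at r = 0.89 (rho = 0.69, exact permutation p = 0.00134, adjusted p = 0.023). *Msln* stood apart with a median r of 0.37, and *Tcf21* with 0.55, and neither had a pair that passed.

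**Figure D3:**
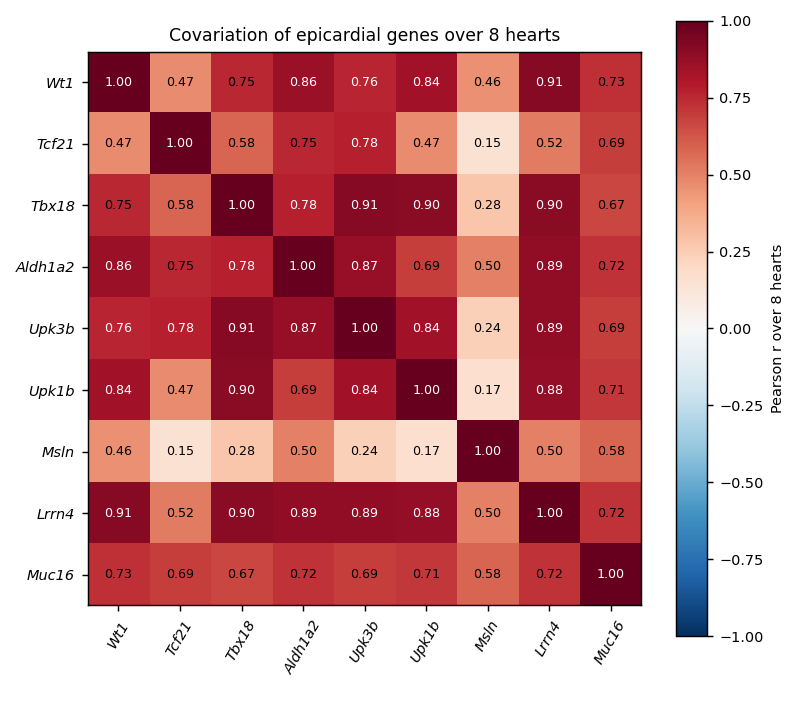
Pearson r over the 8 hearts (colour and printed value) for each pair of the 9 genes on both axes. The block of high values joins *Wt1*, *Tbx18*, *Aldh1a2*, *Upk3b*, *Upk1b* and *Lrrn4*, and the *Msln* row is the palest.

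Some other genes of mesothelium moved with the members, and others did not. Of 33 further mesothelial genes listed, 31 were measured, and 12 of them (38.7%) had r above 0.7 with the mean member deviation, against 3.99% of all genes. Over the 31 the median r was 0.54, against 0.06 over all genes. Their r ran from -0.61 to 0.99, with 16 above 0.5. *Aldh1a1* and *Bnc2*, among the 12 (r = 0.92 each), lay near the lower quartile of the arrays. These further genes deviated from their 8-heart means by 0.07, -0.28 and 0.04 (log2, averaged) in 2lox/2lox hearts 1 to 3, against 0.11, -0.10, -0.03, 0.20 and 0.00 in the wild-type hearts. The 9 members deviated by 0.10, -0.59 and 0.03 in the 2lox/2lox hearts, against 0.20, -0.29, 0.00, 0.40 and 0.15 in the wild-type hearts. Both scores were lowest in 2lox/2lox heart 2 and highest in wild-type heart 4.

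Markers of other cells were read in the same hearts. The lung epithelial (14 genes), epithelial (19), thymus and lymphocyte (14) and liver (7) scores stayed between -0.11 and 0.14, and *Sftpc*, *Foxn1* and *Alb* averaged 5.14, 4.29 and 4.45 in the 2lox/2lox hearts, against 5.19, 4.40 and 4.65 in the wild-type hearts. The atrial score (10 genes) was -0.11, -0.21 and 0.09 in the 2lox/2lox hearts, against -0.10, 0.13, -0.19, 0.32 and 0.07 in the wild-type hearts, and was also highest in wild-type heart 4. The erythroid score (7 genes) was highest in that heart too (0.70). The fibroblast and matrix score (23 genes) did not share the order, at 0.13, 0.00 and 0.13 in the 2lox/2lox hearts, against 0.15, 0.43, -0.45, -0.13 and -0.26 in the wild-type hearts. The cardiomyocyte and endothelial scores (13 genes each) ran against the member score, at r = -0.68 and -0.67. *Eln*, the elastin of great vessels, ranged 25.3-fold over the hearts and was lowest in wild-type heart 3 (7.07). The part of atrial or blood content, or of the RNA quality difference in 2lox/2lox hearts 1 and 2, in the members' order was not tested. With the 3′ to 5′ difference regressed out the median r was 0.67.

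**Figure D4:**
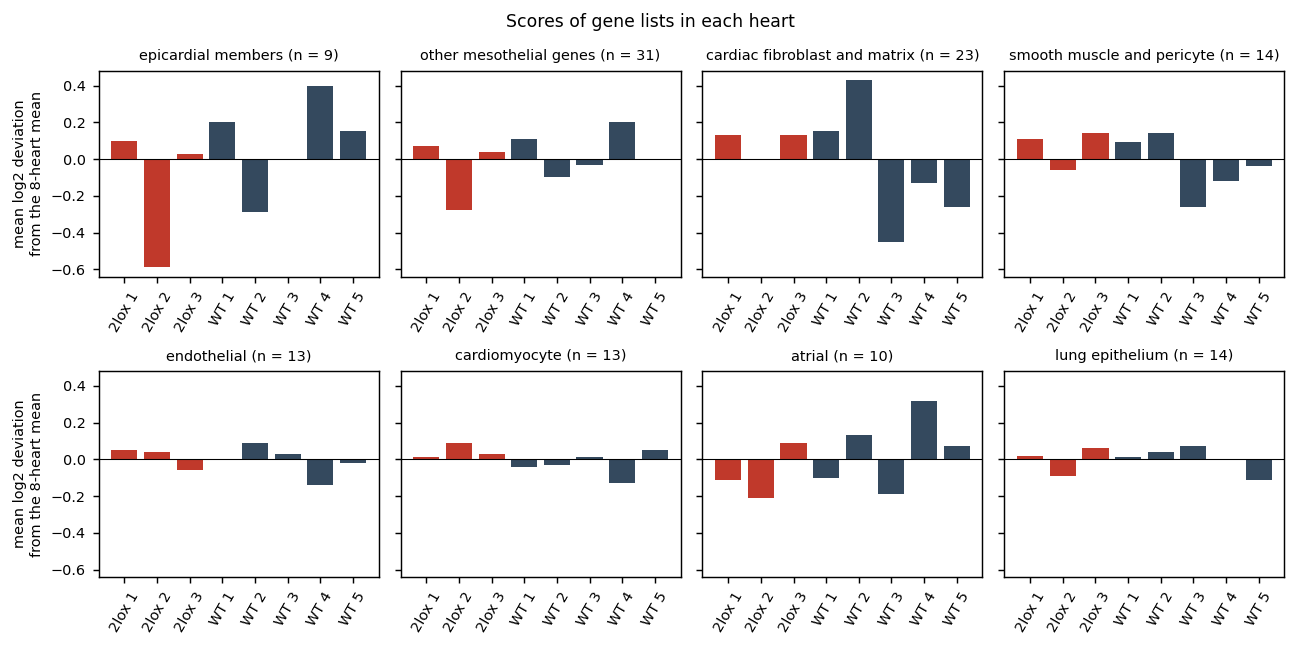
Mean log2 deviation from the 8-heart mean (y axis) of 8 gene lists in each 2lox/2lox heart (red, left) and wild-type heart (dark, right). The mean of the further mesothelial genes follows the members, and the fibroblast and matrix list does not, being highest in wild-type heart 2 (0.43).

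Over all non-member genes above the median level and with an SD of at least 0.2 (1800 genes), the 12 most like the mean of the 5 surface genes had r of 0.84 to 0.97 over the 8 hearts. *Bnc1*, which encodes the zinc-finger protein basonuclin 1, led with r = 0.97. It read 7.17, 5.22 and 7.09 in the 2lox/2lox hearts, against 7.60, 6.15, 7.17, 8.07 and 7.26 in the wild-type hearts. Its range was 7.21-fold. The 12 genes were picked for likeness over these hearts, so low and high hearts shared with the surface genes follow from the choice. *Krt7*, a keratin of simple epithelia and mesothelium, followed at r = 0.96, and *Apela*, which encodes a peptide ligand of the apelin receptor, at 0.95 with a 7.99-fold range. Then came *Tm4sf5* (0.94), *Gpm6a* (0.93), *Efemp1* (0.92), *Stk26* (0.91), *Wdr86* (0.89), *Rspo1* (0.86), 9930012K11Rik (0.86), *Hpgd* (0.85) and *S100a6* (0.84). Spearman's rho over the 12 was 0.48 (*Rspo1*) to 0.98 (*Stk26*). Without 2lox/2lox heart 2 their r was 0.68 (*Hpgd*) to 0.96 (*Bnc1*). Of the 12, 5 are on the mesothelial list, of which 15 genes were ranked, and 0 passed the genotype test (the smallest adjusted p was 0.491 by limma, for *Tm4sf5*).

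**Figure D5:**
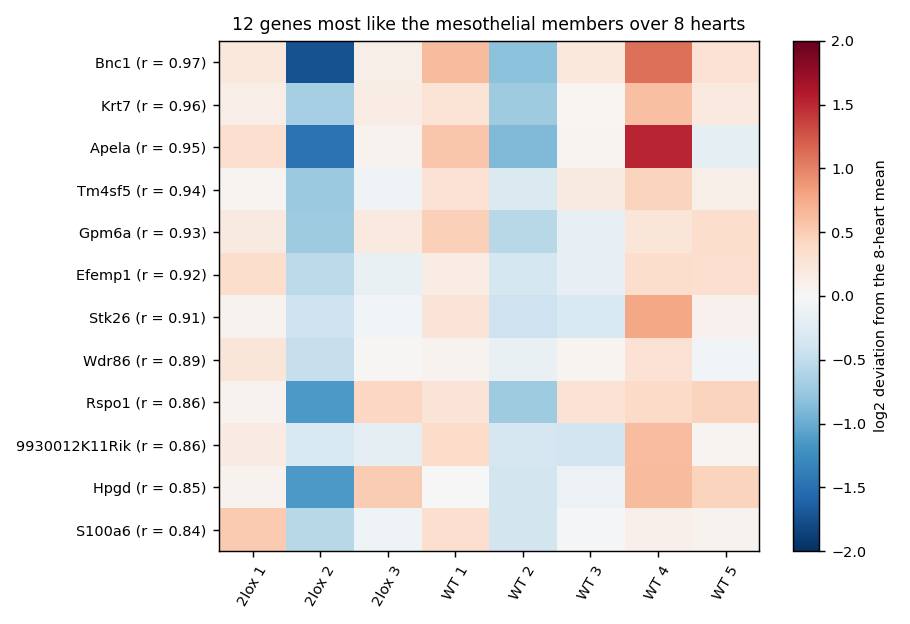
log2 deviation from the 8-heart mean (colour) of the 12 genes most like the mesothelial members (rows, with Pearson r) in each 2lox/2lox heart (left) and wild-type heart (right). 2lox/2lox heart 2 and wild-type heart 2 are low and wild-type heart 4 is high for *Bnc1*, *Krt7* and *Apela*, as the ranking by likeness selects for.

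Epicardial signals and the retinoic acid pathway were read by genotype. In the list of epicardial transition and signal genes 32 were measured and 0 passed, with 2 higher and 1 lower at an unadjusted p below 0.05. Over all 18194 genes 0.148% passed, and at the unadjusted level 5.82% were higher and 4.41% lower. *Sema3d*, which encodes a secreted guidance factor, read 7.82, 7.44 and 7.80 in the 2lox/2lox hearts, against 8.30, 7.96, 8.07, 8.21 and 8.20 in the wild-type hearts. All 2lox/2lox hearts lay below all wild-type hearts, as in 2.71% of all probe sets (log2 fold change -0.46 ± 0.10 SE, adjusted p = 0.205 in limma). *Gata4*, a cardiac transcription factor, read 9.71, 9.73 and 9.44 in the 2lox/2lox hearts, against 9.42, 9.18, 9.37, 9.17 and 9.19 in the wild-type hearts. Here the 2lox/2lox hearts all lay above, as in 3.41% of all probe sets (0.36 ± 0.09 SE, adjusted p = 0.228 in limma). *Sema3d* and *Gata4* were named for the smallest p of the 32.

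Of the retinoic acid pathway 21 genes were measured and 0 passed, with 1 higher and 1 lower at the unadjusted level. *Rarb*, a retinoic acid receptor that is itself induced by retinoic acid, read 7.62, 7.71 and 7.78 in the 2lox/2lox hearts, against 8.10, 7.86, 7.95, 7.98 and 8.03 in the wild-type hearts. All 2lox/2lox hearts lay below all wild-type hearts, as in 2.71% of all probe sets (-0.28 ± 0.07 SE, adjusted p = 0.228 in limma). *Rarb* was named for the smallest p of the 21. *Tgm2*, a transglutaminase induced by retinoic acid, read 12.40, 12.56 and 12.36 in the 2lox/2lox hearts, against 12.24, 12.14, 12.24, 11.97 and 12.23 in the wild-type hearts. Here all 2lox/2lox hearts lay above all wild-type hearts, as in 3.41% of all probe sets (0.28 ± 0.08 SE, adjusted p = 0.281 in limma). *Rarb* and *Tgm2*, which both respond to retinoic acid elsewhere, had estimates of opposite sign, and retinoic acid signalling was not tested. *Aldh1a1*, a further retinaldehyde dehydrogenase, averaged 4.41 in the 2lox/2lox hearts and 4.59 in the wild-type hearts, and followed the member score at r = 0.92, at levels near the lower quartile that cannot be told from background.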

How the data were processed

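The authors deposited log2 expression levels of 45101 probe sets of 8 Affymetrix Mouse430 arrays, already normalized between arrays. The submitters' processing notes name limma. How probes were summarized and normalized is not stated in the sources read. Low values depend most on such choices. Arrays have no depth, and their number limits the precision. Probe set names came from the platform annotation (34958 with 1 gene, 932 with several, 9211 with none), updated through a RefSeq table.

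Hearts were grouped by their labels. The members and lists were chosen with earlier results of these data known. The 2lox/2lox minus wild-type difference was fitted with lmFit and eBayes of limma 3.58.1 (R 4.3.3). Its two-sided p-values were adjusted by Benjamini-Hochberg across the 45101 probe sets, and 0.05 was the limit. A gene was represented by its brightest probe set. Pearson correlations over the 8 hearts were tested by exact permutation in Python 3.11.15. Named genes were all members, up to 4 of each list with the smallest p, and the 12 genes most like the surface genes. *Kdm1a*, *Xist* and the defining markers *Myh6*, *Tnnt2*, *Actc1* and *Sftpc* were named outside this rule, as checks of the samples. P-values measure the spread between these hearts, and shared litters are not given. Alternatives were an intensity trend, quantile normalization, a filter on dim probe sets (at least 5 in at least 3 hearts), array weights, a replicate block, a sex score, the 3′ minus 5′ difference, averaging a gene's probe sets, Spearman's rho, and each heart left out. The counts of member pairs that passed under alternatives, and the removal of 2 hearts together, were added after seeing the data. The scripts were tested on simulated data.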

Additional observations from a re-analysis of the deposited data

Results flagged for a closer look

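In 48 sets of values over the 5 wild-type hearts (member probe sets, the 12 most like genes and the list scores), 2 held a heart farther from the rest than Dixon's 95% limit for 5 samples (0.71 of the range), and chance gives about 1 in 20. Both were low values of wild-type heart 2. *Wt1* read 5.66 there, with a gap of 0.724 of the range, and *Rspo1*, which encodes a secreted Wnt signal enhancer, read 4.78, with a gap of 0.837. That heart also had high *Xist* (10.59). The other heart with high *Xist*, 2lox/2lox heart 3 (10.88), read 6.19 for *Wt1* and 5.90 for *Rspo1*.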

How the results depend on the processing

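None of the 15 member probe sets passed the threshold under any alternative run, and 214 of 223 alternative estimates kept their sign, but many shrank. With the 3′ to 5′ difference as covariate *Aldh1a2* was -0.01, *Upk3b* -0.04 and -0.09, and *Wt1* -0.02. The *Upk1b* probe sets at -0.41 and -0.35 were -0.04 and -0.01, while *Tcf21* was -0.30 and *Muc16* -0.29. Standard errors rose with it, from 0.43 to 0.55 for *Aldh1a2* and from 0.29 to 0.37 for the brighter *Upk3b* probe set. The difference was high in 2lox/2lox hearts 1 and 2 and in no wild-type heart, so this fit separates it poorly from genotype. Its part in the estimates was not tested. *Tbx18* was 0.14 (second probe set) and *Lrrn4* 0.07 with the 3′ minus 5′ difference as covariate, and *Lrrn4* was 0.09 with the replicate block. Leaving out hearts gave ranges of -0.19 to 0.02 for the brighter *Tbx18* probe set, -0.94 to 0.05 for *Aldh1a2*, -0.11 to 0.23 for *Msln* and -0.33 to 0.14 for *Lrrn4*. Without 2lox/2lox heart 2, *Tbx18* was 0.02, *Aldh1a2* 0.05 and *Lrrn4* 0.14. For *Msln* the estimate was -0.11 when 2lox/2lox heart 1 was left out, -0.02 when wild-type heart 2 was, and -0.01 when wild-type heart 4 was. The filter on dim probe sets kept 13 of the 15 and dropped *Muc16* and the second *Tcf21* probe set.

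Over all probe sets 36 passed, and 9 with the 3′ minus 5′ covariate. With 1 heart left out 17 to 797 passed, the highest without 2lox/2lox heart 3 and the lowest without wild-type heart 1. Both 2lox/2lox hearts kept in the fit with 797 had the high 3′ to 5′ difference. With the replicate block 0 passed. Hearts with the same number did not deviate together over all probe sets (r = 0.01, -0.08 and -0.05 for numbers 1 to 3). A shared litter need not show in these values, so they cannot settle whether the numbers pair the hearts. The median pairwise r of the members ranged from 0.52 (without 2lox/2lox heart 2) to 0.78 with 1 heart left out, and was 0.62 without both 2lox/2lox heart 2 and wild-type heart 4. Member pairs that passed numbered 10, 18 after averaging a gene's probe sets, 0 with Spearman's rho, and 0 to 14 with 1 heart left out (0 without 2lox/2lox heart 2).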

Other observations

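At the other end of the likeness ranking, genes named after their values were seen ran against the surface genes. *Pcdh7*, a protocadherin, had r = -0.86 and *Ier3*, an immediate early response gene, also had r = -0.86. *Vegfa*, the vascular growth factor, read 7.65, 8.17 and 7.41 in the 2lox/2lox hearts, against 7.35, 7.52, 7.60, 7.27 and 7.41 in the wild-type hearts (r = -0.80). *Ankrd37* (r = -0.80) and *Stc1* (r = -0.78), which like *Vegfa* are known to be induced by low oxygen, were likewise highest in 2lox/2lox heart 2, at 6.49 and 7.31. The mean of the surface genes was lowest in that heart, so high values there follow largely from the ranking. These genes were picked from the 12 most opposite, and a response to low oxygen was not tested. Without that heart r was -0.57 for *Vegfa*, -0.64 for *Ankrd37* and -0.59 for *Stc1*.

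All 15 macrophage and myeloid genes had positive estimates in 2lox/2lox against wild-type hearts, with a median log2 fold change of 0.27. Of them 9 had an unadjusted p below 0.05 by limma, but 0 passed after adjustment. Over all 18194 genes 48.0% were positive and 5.82% were higher at the unadjusted level. The 15 genes mark related cells and were read in the same hearts, so they do not count as separate results. *Mrc1*, the mannose receptor of resident macrophages, read 7.83, 7.97 and 7.88 in the 2lox/2lox hearts, against 7.39, 7.50, 7.45, 7.32 and 7.56 in the wild-type hearts (0.45 ± 0.07 SE, adjusted p = 0.0691 in limma). Their score correlated with the member score at r = -0.48 over the 8 hearts.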
